A study of Mus musculus with 4 samples.

Results

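A set of 7 genes of the common gamma chain family was followed across the immune cells of MC38 colon tumors. They are 2 cytokine genes, Il2 and Il15, and 5 receptor genes, Il2rb, Il2rg, Il7r, Il15ra and Il21r, chosen by name as 7 of the 19059 genes measured. Single-cell RNA counts came from viable CD45+ cells sorted from tumors of C57BL/6 mice that carry human CTLA-4 (B-hCTLA-4 mice). MC38 tumors were treated from about 100 mm3 and harvested at day 8, after 3 treatments. Each of the 4 groups was 1 library, made from the pooled tumors of 11 mice, and all libraries carry the same batch label. Doses, tumor size, harvest day and number of mice are printed as the labels give them. The article's own description of this experiment differs from the labels in the doses of both antibodies, tumor size, day and number of mice. The control dose is the same in both.

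The 4 groups were a human IgG1 isotype control at 10 mg/kg, the human CTLA-4 antibody ipilimumab at 10 mg/kg, the mouse FcgRII antibody AT130-2 with an mIgG1-N297A Fc domain at 20 mg/kg, and the combination of both antibodies. All mice shared the humanized CTLA-4 gene and the tumor line. For both single antibody libraries the title and the treatment field of the labels name opposite antibodies, so that which of them received ipilimumab cannot be told from the labels. They are called the library titled anti-human CTLA-4 and the library titled anti-mouse FcgRII, and the comparison described at length is combination against isotype control, which this disagreement does not touch. With 1 library per group there is no replicate check and no test. Intervals in brackets are 95% exact intervals that cover counting error only, and they hold neither the spread between mice nor that between libraries.

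Cytokines of this family signal through receptors that share the gamma chain encoded by Il2rg. IL-2 and IL-15 also share the beta chain encoded by Il2rb, while IL-7 and IL-21 each pair the gamma chain with a chain of their own, encoded by Il7r and Il21r. IL-2 is made mainly by activated T cells and is bound with high affinity where the alpha chain Il2ra is present, as on regulatory T cells. IL-15 is carried by myeloid and stromal cells on the alpha chain encoded by Il15ra and handed to neighboring lymphocytes, and it sustains NK cells and memory CD8 T cells. The receptors signal through the kinases Jak1 and Jak3 to STAT factors, whose targets include the feedback genes Cish and Socs1.

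In GRCm38 with GENCODE M21 annotation all 7 genes are protein coding, and the identifiers in the files match those of the annotation. Il2 (ENSMUSG00000027720) lies at chr3:37120523-37125959 on the minus strand and Il15 (ENSMUSG00000031712) at chr8:82331632-82403222 on the minus strand. Il2rb (ENSMUSG00000068227) lies at chr15:78479256-78495271, Il7r (ENSMUSG00000003882) at chr15:9505788-9530176 and Il2rg (ENSMUSG00000031304) at chrX:101264378-101268255, each on the minus strand. Il15ra (ENSMUSG00000023206) lies at chr2:11705290-11734317 and Il21r (ENSMUSG00000030745) at chr7:125603429-125633570, both on the plus strand. Each value is 1 count per gene from probes to the transcript and does not tell isoforms apart.

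RefSeq promoter windows on GRCm38.p6 were matched for 5 of the 7 genes. The 250 bases before the start are shown for 3 of them, because the results turn on Il2 in single T cells and on Il2rg and Il15ra in macrophages. Each is written 5′ to 3′ along the gene's own strand, and capitals mark matches, on either strand, to GGAAA (the core bound by NFAT factors) or AANNGAAA (an IRF factor motif). The Il2 window is chr3:37125955-37126204, minus strand, the Il2rg window chrX:101268256-101268505, minus strand, and the Il15ra window, before the first of its 2 starts, chr2:11705043-11705292, plus strand.
Il2: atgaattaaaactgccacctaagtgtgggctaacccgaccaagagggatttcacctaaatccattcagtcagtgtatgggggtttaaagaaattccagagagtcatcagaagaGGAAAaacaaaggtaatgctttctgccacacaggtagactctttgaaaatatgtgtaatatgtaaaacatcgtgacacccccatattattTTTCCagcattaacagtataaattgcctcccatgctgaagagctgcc
Il2rg: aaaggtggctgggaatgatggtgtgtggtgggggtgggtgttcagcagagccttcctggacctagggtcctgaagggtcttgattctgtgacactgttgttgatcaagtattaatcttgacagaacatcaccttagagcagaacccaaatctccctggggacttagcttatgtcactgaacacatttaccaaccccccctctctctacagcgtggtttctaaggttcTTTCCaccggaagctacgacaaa
Il15ra: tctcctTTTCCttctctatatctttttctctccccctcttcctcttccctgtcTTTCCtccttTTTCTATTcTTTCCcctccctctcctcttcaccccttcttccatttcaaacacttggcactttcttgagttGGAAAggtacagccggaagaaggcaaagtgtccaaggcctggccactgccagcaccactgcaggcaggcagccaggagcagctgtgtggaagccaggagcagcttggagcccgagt

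These windows hold 2 matches to GGAAA for Il2, 1 for Il2rg and 4 for Il15ra, and 1 match to AANNGAAA for Il15ra. GGAAA was found in 55.6% of all 32841 windows of that length and AANNGAAA in 21.3%. The STAT motif TTCNNNGAA, found in 7.02% of windows, had no match in these 3 and 1 match in the Il7r window. After its second start Il15ra holds another AANNGAAA match, a motif found in 3.23% of the 50-base windows after a start. It is shown in capitals within bases 17 to 46 after that start, at chr2:11705728-11705757 on the plus strand.
Il15ra second start: gctaaagcaaAAGCGAAAgcgaatactcct
A match describes the letters of a window and is not evidence of binding.

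After filters 26786 of 28290 deposited cells were kept, with totals of 129151823 to 196362818 UMIs (counted molecules) per library and a median of 14836 to 19115 UMIs per cell. No full cell barcode was shared between libraries, each of which had 1 probe barcode of its own, while pairs of libraries shared 712 to 1148 droplet barcodes. Cells fell into 27 clusters, which were named by marker lists as T cell-like, NK cell-like, ILC1-like, macrophage-like, monocyte-like, dendritic-like and neutrophil-like, and are called by the cell type alone from here on. A class of cells with both T or NK cell and macrophage RNA, 5.90 to 11.7% of cells in a library, was set apart as mixed. Levels are UMIs of a gene per 1000000 UMIs of its class (CPM), with the 4 libraries always in the order isotype control, titled anti-human CTLA-4, titled anti-mouse FcgRII and combination. As shares of class RNA they can be compared between classes and libraries but not between genes, and they are not amounts per cell. The kept classes still held RNA of other types. In T cells the summed level of the 15 macrophage markers was 9161, 2787, 11386 and 7045 CPM, and in macrophages the 12 T cell markers summed to 174, 77.9, 33.5 and 179 CPM.

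Each gene had its own order of classes, as the plot of levels by class and library shows. Il2 was highest in T cells, Il15 in neutrophils, Il2rb in NK cells and ILC1, Il2rg in ILC1, T cells and NK cells, and Il7r in T cells. Il21r was highest in dendritic cells and T cells, whose ranges over the 4 libraries overlapped. Il15ra had no class that stood clear of the next, since the ranges over libraries of all 7 classes overlapped with those of their neighbors in the order.

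**Figure D1:**
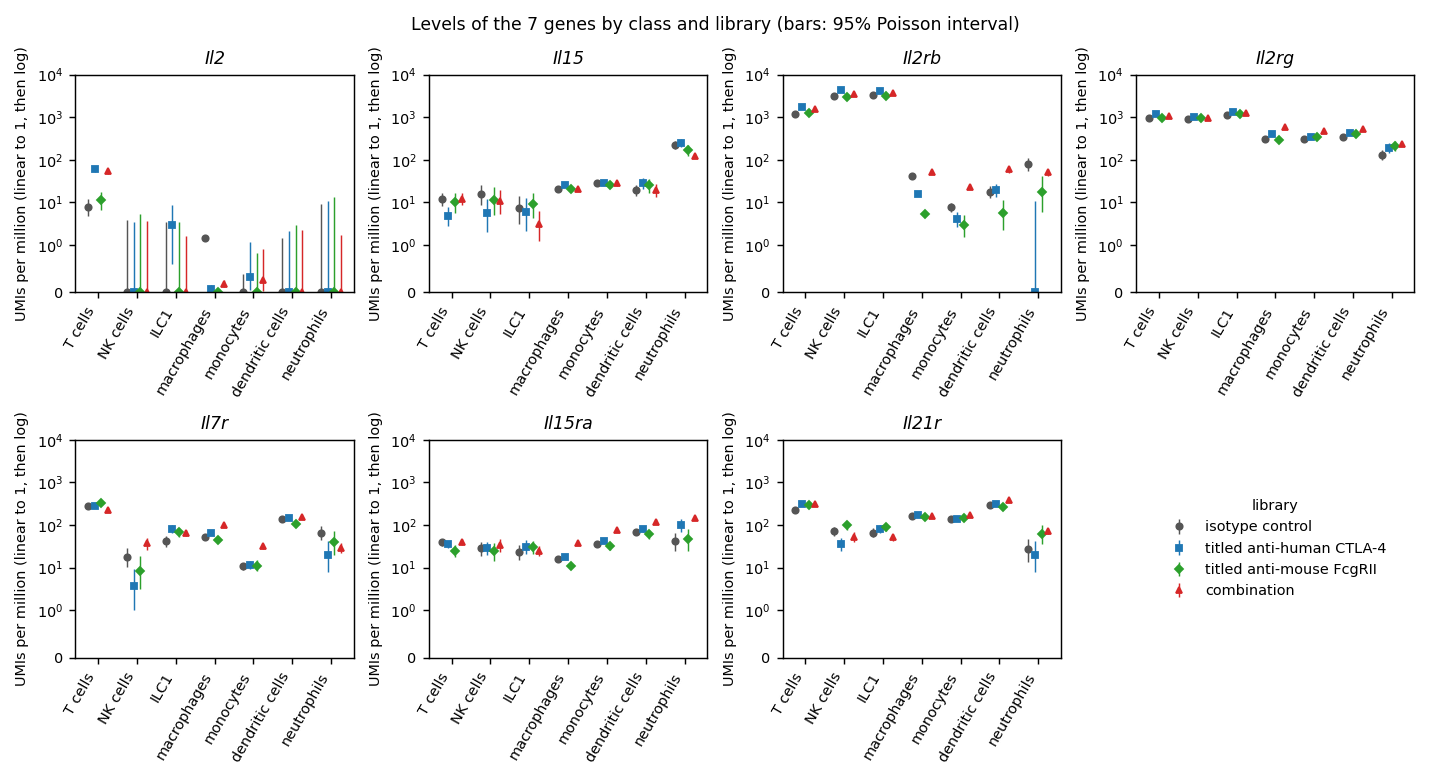
Level of each of the 7 genes in each cell class (CPM, axis linear up to 1 and logarithmic above), with 1 symbol per library and bars for the 95% exact Poisson interval, which covers counting error only. Il2rb lay at 2999 CPM or above in NK cells and ILC1 in every library, and Il15 was highest in neutrophils, at 124 to 250 CPM.

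Il2, the T cell growth factor, was carried by very few cells. Among all 26786 cells 153 had an Il2 UMI, with 1016 UMIs in sum, and 6 cells with at least 20 UMIs each held 794 of them (78.1%). Of the other cells 134 had 1 or 2 UMIs. In T cells the level was 7.82 (4.90 to 11.8), 60.5 (52.8 to 69.2), 11.2 (6.66 to 17.7) and 53.6 CPM (46.1 to 62.0). The library titled anti-human CTLA-4 and the combination thus lay above the other two libraries.

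These high levels were each 1 cell. A single T cell held 199 of the 217 Il2 UMIs of the library titled anti-human CTLA-4, and another held 175 of the 182 of the combination. In the isotype control library the T cell with the most Il2 held 6 of 22 UMIs, and in the library titled anti-mouse FcgRII 9 of 18. Without the top cell of each library the levels were 5.69, 5.03, 5.64 and 2.07 CPM. The ratio of combination to isotype control was 6.86 (4.40 to 11.2) with these cells and 0.36 (0.13 to 0.93) without them, as the plot of Il2 in T cells shows. Its direction turned on 1 cell of the combination, since that library without it (2.07 CPM) lay below the isotype control with all its T cells (7.82 CPM).

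The number of T cells with an Il2 UMI was 14 of 415, 16 of 590, 6 of 213 and 8 of 415. With cells drawn down to 2000 UMIs the expected share of T cells with an Il2 UMI was 2.21%, 1.42%, 1.84% and 1.22%, against 3.37%, 2.71%, 2.82% and 1.93% as counted. In macrophages, which should lack the gene, the drawn-down share was 0.0388%, 0.0153%, 0% and 0.0284%. Median depths were 4011 to 5474 UMIs in T cells and 16987 to 22182 UMIs in macrophages. T cells were also split by their UMIs of Cd8a or Cd8b1, Cd4 and Foxp3. Foxp3-positive CD4 T cells had no Il2 UMI in any library, but they were only 88, 48, 42 and 9 cells, and a count of 0 allows up to 5.29 CPM in the first and 21.9 CPM in the last, taking 3 UMIs over the class total as the limit. NK cells, dendritic cells and neutrophils had no Il2 UMI in any library either.

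**Figure D2:**
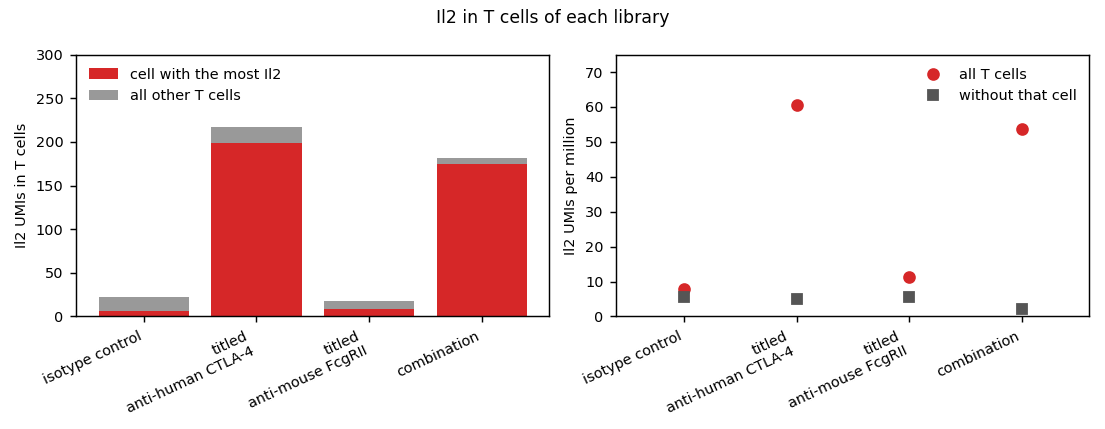
Il2 in the T cells of each library: the left panel gives Il2 UMIs (bars from 0) split into those of the cell with the most Il2 and those of all other T cells, and the right panel the level in CPM with and without that cell. A single cell holds 199 of 217 UMIs in the library titled anti-human CTLA-4 and 175 of 182 in the combination, and without the top cells the 4 levels lie between 2.07 and 5.69 CPM.

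The 6 cells with 20 or more Il2 UMIs also held other effector cytokines, in different mixes. The T cell of the library titled anti-human CTLA-4 had 940 UMIs of Il3, 417 of Ifng and 183 of Csf2 among 6863 UMIs, with 2 of Cd4 and none of Cd8a. The T cell of the combination had 653 UMIs of Ifng and 82 of Tnf among 9075 UMIs, with 8 of Cd8a and none of Cd4. Both had under 0.1% of their UMIs on macrophage markers, and so were nearly free of macrophage RNA. Another 3 were in the mixed class. Of these, 1 in the combination library had 27 UMIs of Il21 beside 56 of Il2 and 10 of Cd4. The sixth, in the isotype control library, lay in a dividing macrophage cluster with 112379 UMIs, 15 of Cd3e and 721 of C1qa, and its 127 Il2 UMIs were 127 of the 140 in all macrophages of that library.

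Il15, the cytokine for NK cells and memory CD8 T cells, was highest in neutrophils, at 219 (176 to 270), 250 (200 to 308), 165 (121 to 220) and 124 CPM (109 to 139). The combination was the lowest of the 4, with a ratio to isotype control of 0.56 (0.44 to 0.72). The summed neutrophil markers of the class were lowest in the combination too, at 53715, 49251, 48667 and 32122 CPM, and their part in the lower Il15 was not tested. The drawn-down share of neutrophils with an Il15 UMI was 32.1%, 33.8%, 33.1% and 18.4%, against 40.5%, 51.6%, 52.0% and 27.6% as counted, at median depths of 2951 to 3489 UMIs. Macrophages had median depths of 16987 to 22182 UMIs, so that the gap between the 2 classes is larger in share of RNA than in Il15 UMIs per cell. In ILC1, the class with the lowest level, the drawn-down share was 1.04%, 1.41%, 1.35% and 0.423%. The Il15 ratio was 0.67 without neutrophils that had macrophage RNA, just short of 1.5-fold lower. Neutrophils were 111, 91, 50 and 467 cells. The share of the class held by its subclusters differed between libraries: one led by G0s2 and Hdc, with high Ifit and Cxcl10 genes, had 151 of its 200 cells in the combination library. Il15 in this subcluster was 260 CPM in the isotype control and 166 CPM in the combination.

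Il15 in the other myeloid classes, each taken as a whole, did not separate the libraries by much. Macrophages had 21.0, 25.2, 20.3 and 20.6 CPM (ratio of combination to isotype control 0.98, 0.92 to 1.04), and monocytes had 27.9, 29.1, 25.8 and 28.2 CPM (1.01, 0.85 to 1.21). Between the 12 macrophage clusters the level differed far more than between libraries of the whole class. Ratios of combination to isotype control ran from 0.60 to 1.78 in the 11 clusters with at least 30 UMIs over both libraries. Of these, 2 were past 1.5-fold higher and 1 lower. The cluster with high Ifit genes, which are induced by interferon, had 75.6, 87.2, 66.1 and 61.8 CPM, and no other macrophage cluster exceeded 40.3 CPM in any library. Among dendritic cells the cluster with Ccr7, Fscn1 and Ccl22, markers of migratory dendritic cells, had 64.4, 142, 99.6 and 39.1 CPM, against 11.8, 14.8, 8.78 and 14.3 CPM in the other cluster. The small subcluster of NK cells with high Ifit3 and Isg15 had 60.5 CPM over all libraries, from 24 cells.

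Il2rb, the beta chain shared by the IL-2 and IL-15 receptors, separated NK cells and ILC1 from every other class. NK cells had 3197, 4269, 2999 and 3477 CPM and ILC1 had 3346, 4008, 3056 and 3648 CPM, so that their ranges overlapped. T cells followed at 1167, 1700, 1264 and 1565 CPM, with no overlap with either. Within T cells, CD8 T cells had 1363, 1962, 1290 and 1690 CPM and lay above Foxp3-negative CD4 T cells, at 793, 1052, 744 and 1176 CPM, in all 4 libraries. A subcluster led by Trdc, Tcrg-C4 and Klra6, genes of gamma delta T cells and NK-type receptors, had the highest T cell level, 2360 CPM over all libraries.

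In T cells Il2rb was 1.34 times as high in the combination as in the isotype control (1.28 to 1.40), and in NK cells and ILC1 together 1.18 times (1.15 to 1.22). With all cells of each class, the library titled anti-human CTLA-4 was the highest of the 4 in both. The make-up of the T cells differed, since CD8 T cells, which had more Il2rb than the CD4 T cells without Foxp3, were 100 of 415 in the isotype control and 199 of 415 in the combination. The ratio was 1.24 (1.15 to 1.33) within CD8 T cells and 1.48 (1.33 to 1.66) within Foxp3-negative CD4 T cells. Macrophage RNA moved with these levels: the summed macrophage markers in NK cells and ILC1 were 6246, 1320, 7257 and 3868 CPM, lowest where Il2rb was highest. Without cells with 1% or more of their UMIs on macrophage markers, the NK cell and ILC1 levels were 3611, 4054, 3744 and 3729 CPM and the ratio of combination to isotype control was 1.03. In T cells the levels without such cells were 1318, 1772, 1711 and 1831 CPM, highest in the combination. The T cell ratio of combination to isotype control was then 1.39.

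Most Il2rb in macrophages lay in cells that also held lymphocyte markers. Macrophages had 42.3, 15.8, 5.47 and 50.7 CPM. Without the cells that had a UMI of any T cell or NK cell marker, the levels were 0.913, 0.565, 0.385 and 1.36 CPM. In monocytes the ratio of combination to isotype control was 3.08 with these cells and 1.26 without them. In dendritic cells it was 3.35 with them and 0.54 without them, on 4 and 1 UMIs.

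Il2rg, the gamma chain itself, was found in every class. ILC1 had 1149, 1310, 1204 and 1220 CPM and NK cells had 915, 982, 941 and 977 CPM, so that ILC1 lay above NK cells with no overlap. T cells had 935, 1174, 975 and 1062 CPM (ratio of combination to isotype control 1.14, 1.08 to 1.19). In T cells the drawn-down share of cells with both Il2rb and Il2rg was 72.8% over all libraries, close to the 72.0% that the product of the separate shares gives. In ILC1 it was 90.0%, with a product of 89.9%.

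In myeloid cells Il2rg was higher in the combination than in each other library. Macrophages had 315 (311 to 318), 400 (396 to 404), 293 (289 to 296) and 576 CPM (572 to 581), a ratio of combination to isotype control of 1.83 (1.81 to 1.86). The drawn-down share of macrophages with an Il2rg UMI was 41.8%, 49.8%, 40.4% and 62.2%, against 88.5%, 93.2%, 90.0% and 96.6% as counted. For comparison, it was 9.02%, 7.67%, 9.41% and 11.5% in fibroblast or tumor cells, which should lack the gene. Dendritic cells had 340, 430, 401 and 515 CPM (1.51, 1.38 to 1.67), monocytes 306, 349, 341 and 466 CPM (1.53, 1.45 to 1.60) and neutrophils 129, 189, 208 and 232 CPM (1.80, 1.35 to 2.43).

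The higher Il2rg in macrophages of the combination held in every macrophage cluster. The combination was the highest of the 4 libraries in 12 of 12 clusters, with ratios to isotype control of 1.40 to 2.07, and 9 of them were past 1.5-fold. The cluster with Cbr2 and Folr2, genes of resident-type macrophages and the largest cluster in 3 of the libraries, went from 267 CPM in the isotype control to 552 CPM in the combination. The cluster led by Ly6i, Ccl17 and Nos2, the largest in the combination, had 364 and 593 CPM. The cluster with MHC class II genes and Cxcl9 had the highest level, at 424, 563, 427 and 766 CPM.

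**Figure D3:**
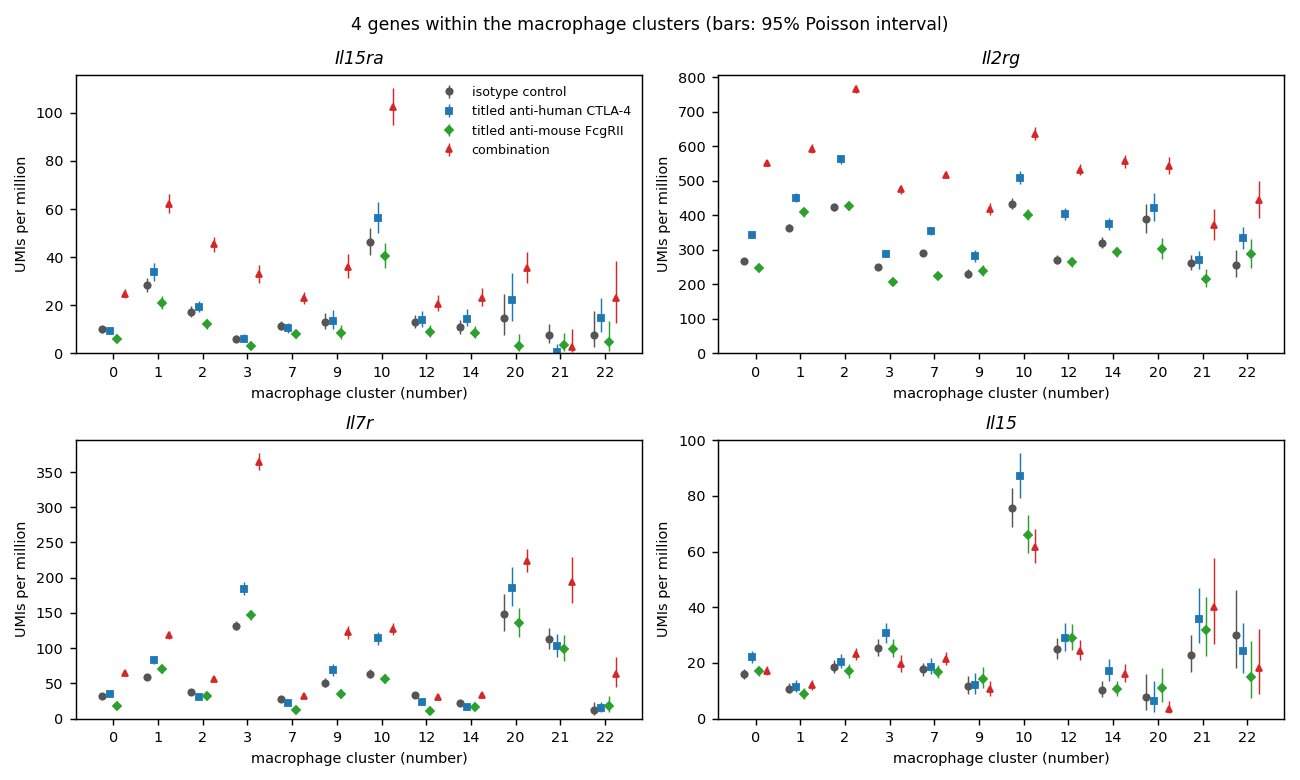
Levels of Il15ra, Il2rg, Il7r and Il15 (CPM, linear axes from 0) in the 12 macrophage clusters, with 1 symbol per library and bars for the 95% exact Poisson interval. Cluster 0 is the Cbr2 and Folr2 cluster, 1 the Ly6i and Nos2 cluster, 2 the MHC class II cluster, 3 the Hspa1a and Ctsk cluster and 10 the cluster with high Ifit genes; for Il2rg the combination is the highest symbol in 12 of 12.

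Il7r, the alpha chain of the IL-7 receptor and a mark of naive and memory T cells, was highest in T cells, at 283, 275, 325 and 230 CPM. The ratio of combination to isotype control was 0.81 (0.73 to 0.90). It was 0.69 without cells with macrophage RNA and 1.03 when the dividing subcluster with macrophage RNA was kept in the class, so that the direction rests on that choice. CD8 T cells had 192, 195, 238 and 165 CPM and lay below Foxp3-negative CD4 T cells, at 345, 380, 459 and 281 CPM, in all 4 libraries. A subcluster of 35 cells whose leading genes included Cd163l1 and Tcrg-V6, genes of gamma delta T cells, had 1077, 1834, 764 and 1793 CPM, the highest of all T cell subclusters. A subcluster with Tcf7, Ccr7 and S1pr1, genes of naive and memory T cells, had 453 CPM over all libraries.

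Outside T cells Il7r was highest in dendritic cells, at 139, 149, 106 and 155 CPM, and the Ccr7 and Ccl22 cluster had 384, 454, 168 and 279 CPM. ILC1 had 42.1, 82.2, 68.0 and 64.0 CPM and NK cells had 17.8, 3.72, 8.54 and 37.1 CPM, so that their ranges did not overlap. Macrophages had 52.6 (51.2 to 54.1), 63.3 (61.6 to 65.1), 44.2 (42.9 to 45.6) and 99.8 CPM (97.9 to 102), a ratio of combination to isotype control of 1.90 (1.83 to 1.96). It was 2.21 without macrophages that had a UMI of a T cell or NK cell marker. Within macrophages the cluster with Hspa1a, Ctsk and Hilpda had the highest level, at 132, 184, 147 and 365 CPM. The combination was above the isotype control in 11 of 12 clusters, 9 of them past 1.5-fold, and the exception was a dividing cluster with 32.9 and 30.5 CPM. Monocytes had 10.7, 11.6, 11.2 and 31.5 CPM (2.94, 2.33 to 3.74).

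Il15ra, the chain that presents IL-15, was higher in the combination than in the isotype control in all 4 myeloid classes, past 1.5-fold in each. Macrophages had 15.7 (14.9 to 16.5), 17.5 (16.6 to 18.5), 10.8 (10.1 to 11.5) and 38.5 CPM (37.4 to 39.7), a ratio of combination to isotype control of 2.46 (2.32 to 2.61). The drawn-down share of macrophages with an Il15ra UMI was 3.33%, 3.61%, 2.33% and 7.88%, against 21.9%, 24.4%, 16.5% and 45.0% as counted. Mast cells had 3.26%, 0.257%, 1.07% and 2.90% drawn down, from 24 to 67 cells. In all 10 macrophage clusters with at least 30 UMIs over both libraries the ratio was past 1.5-fold, from 1.60 to 5.39. The lowest level and the highest ratio came in the Hspa1a and Ctsk cluster, at 6.08, 6.08, 2.84 and 32.8 CPM. The cluster with high Ifit genes had 46.2, 56.1, 40.4 and 102 CPM, the highest macrophage level.

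In monocytes, dendritic cells, neutrophils and fibroblast or tumor cells the combination also had the highest Il15ra of the 4 libraries. Monocytes had 36.3, 42.7, 31.4 and 75.9 CPM (2.09, 1.83 to 2.39), dendritic cells 66.9, 81.3, 61.0 and 119 CPM (1.78, 1.45 to 2.21) and neutrophils 41.4, 97.6, 46.6 and 150 CPM (3.63, 2.23 to 6.30). Fibroblast or tumor cells that came through the sort had 34.3, 45.9, 32.7 and 82.2 CPM (2.39, 1.97 to 2.93). The dendritic clusters differed: the larger cluster had 18.8, 21.9, 18.5 and 55.1 CPM, while the Ccr7 and Ccl22 cluster had 353, 586, 258 and 357 CPM, with like levels in the isotype control and the combination. The Ccr7 and Ccl22 cluster was 15.5% of dendritic cells in the isotype control and 27.0% in the combination. In neutrophils the subcluster with high Ifit and Cxcl10 genes had 256 CPM over all libraries, the highest of the class. The combination held 151 of the 200 cells of this subcluster and 467 of all 719 neutrophils, so that subcluster and library cannot be told apart in that level.

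Il15ra in lymphocytes gave no such order. T cells had 39.4, 35.4, 24.95 and 40.7 CPM (1.03, 0.80 to 1.34), and NK cells with ILC1 had 22.6, 28.2, 26.8 and 25.9 CPM (1.14, 0.82 to 1.62). CD8 T cells had 58.5, 41.9, 30.5 and 43.1 CPM, highest in the isotype control. Il15 and Il15ra were found in the same dendritic cell in 2.01% (1.05 to 3.51) of drawn-down cells over all libraries, against 0.56% as the product of their shares, and the Ccr7 and Ccl22 cluster had the higher level of both genes. In macrophages the share was 0.27% (0.19 to 0.36) against 0.18%.

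Il21r, the private chain of the IL-21 receptor, was at 298, 310, 262 and 395 CPM in dendritic cells, and their Ccr7 and Ccl22 cluster reached 840, 821, 380 and 653 CPM. T cells had 221, 319, 295 and 308 CPM, above dendritic cells in both single antibody libraries, with a ratio of combination to isotype control of 1.39 (1.26 to 1.54), and the isotype control was the lowest of the 4. The T cell subcluster led by Ccl1, Ifng and Cd8a had 360 CPM over all libraries. In CD8 T cells the levels were 250, 366, 337 and 372 CPM. Macrophages had 161, 170, 155 and 166 CPM, a ratio of 1.03 (1.01 to 1.05), and none of the 12 clusters was past 1.5-fold in either direction. NK cells with ILC1 had 78.4, 63.9, 93.9 and 54.6 CPM (0.70, 0.57 to 0.85), and that ratio was 0.98 without cells with macrophage RNA.

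**Figure D4:**
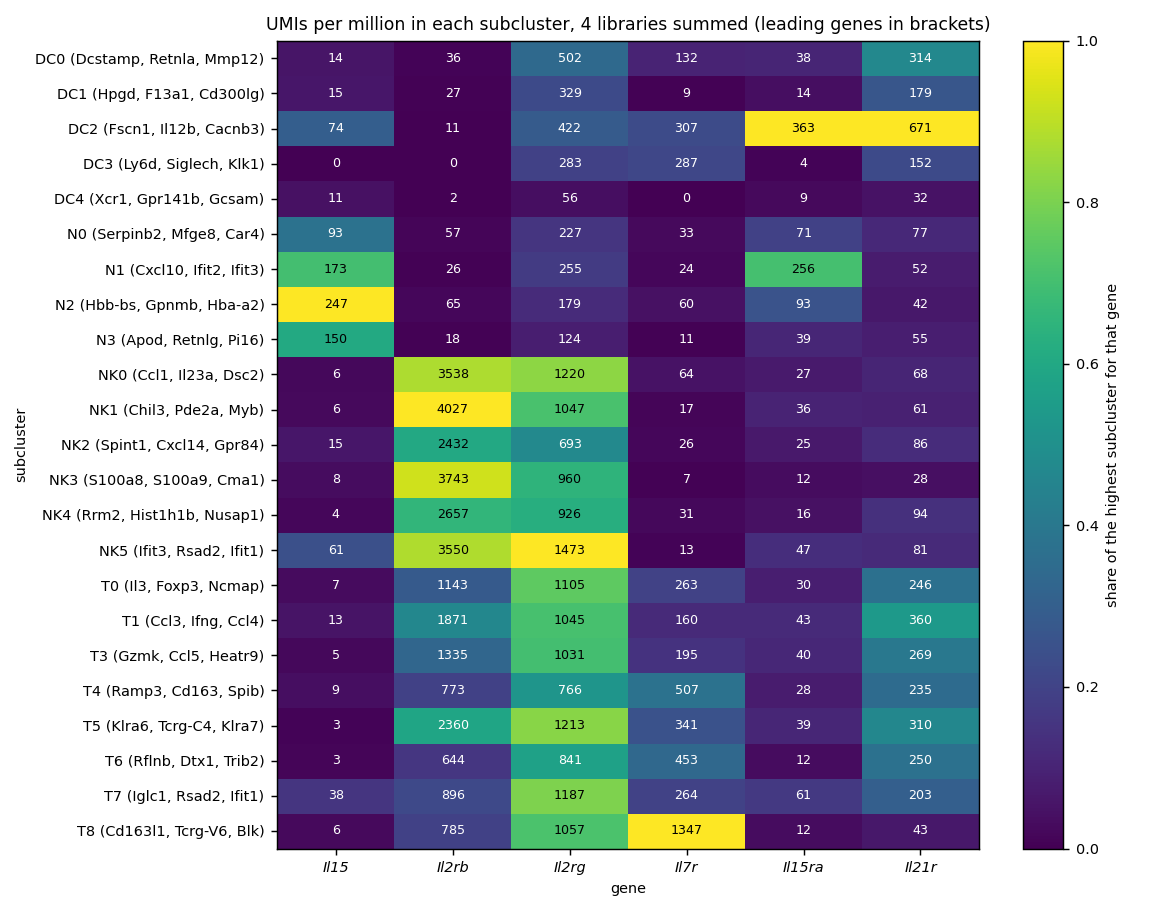
Levels of 6 of the genes (all but Il2) in the subclusters of dendritic cells (DC), neutrophils (N), NK cells and ILC1 (NK) and T cells (T), as CPM over the 4 libraries summed, printed in each square, with color for the share of the gene's highest subcluster and leading genes in brackets. The Cd163l1 and Tcrg-V6 subcluster has the highest Il7r, 1347 CPM, and the Fscn1 and Il12b dendritic subcluster the highest Il15ra and Il21r, 363 and 671 CPM.

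Counted by class, the genes past 1.5-fold between combination and isotype control, among those with at least 30 UMIs over both libraries, were read beside the share of all genes past that fold. In macrophages 3 of 7 were higher (Il2rg, Il7r and Il15ra) and 1 lower (Il2), where 6.20% of 12314 genes were higher and 8.32% lower, and the median ratio of the 7 genes was 1.198 against 0.92 over all genes. That median of the 7 genes was the Il2rb ratio itself, and most Il2rb in macrophages lay in cells that also held lymphocyte markers. The lower Il2 was 1 cell: the ratio was 0.97 without the top cell of each library, 1.47 with 10% of cells left out as doublets and 1.85 with clusters made without integration. The median of all genes in macrophages was thus shifted by -0.11 on the log2 scale. In monocytes 4 of 6 were higher (Il2rb, Il2rg, Il7r and Il15ra) and none lower, with 7.70% and 6.00% of all genes. Without monocytes that had a T cell or NK cell marker UMI, Il2rb (1.26) and Il2rg (1.45) were under 1.5-fold, and Il2rb was 0.89 with clusters made without integration, whose monocytes were a smaller set of cells. In dendritic cells 3 of 6 were higher (Il2rb, Il2rg and Il15ra) and none lower, with 7.12% and 12.4% of all genes. Of these Il2rb turned to 0.54 without cells with lymphocyte markers and to 0.78 with clusters made without integration. In neutrophils 3 of 6 were higher (Il2rg, Il15ra and Il21r) and 3 lower (Il15, Il2rb and Il7r), where 19.1% and 14.4% of all genes were past the fold. The neutrophil Il2rb ratio was 0.65, with 17 of the 32 UMIs of the isotype control in 1 cell, and it was 0.93 without the top cells and 1.76 with 10% of cells left out as doublets. Il21r was 2.73, and 1.19 as the mean over cells.

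Lymphocytes had fewer. In T cells 1 of 7 was higher, Il2 with its single cell, and none lower, where 4.85% of 9886 genes were higher and 6.78% lower, and the median ratio was 1.14. In NK cells and ILC1 together 1 of 6 was higher (Il7r, 1.74, 1.32 to 2.32) and 1 lower (Il15, 0.51, 0.27 to 0.97), with 4.88% and 7.81% of all genes. In CD8 T cells 1 of 7 was higher, Il2 again, where 7.14% and 8.03% of all genes were past the fold. In Foxp3-positive CD4 T cells, with 9 cells in the combination, 2 of 4 were lower (Il2rg, 0.66, and Il7r, 0.54), where 14.1% and 21.0% of all genes were higher and lower. In these cells the summed macrophage markers were at 4989 CPM in isotype control and 11694 CPM in combination and the T cell markers at 8696 and 5132 CPM, and their part in these values was not tested.

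**Figure D5:**
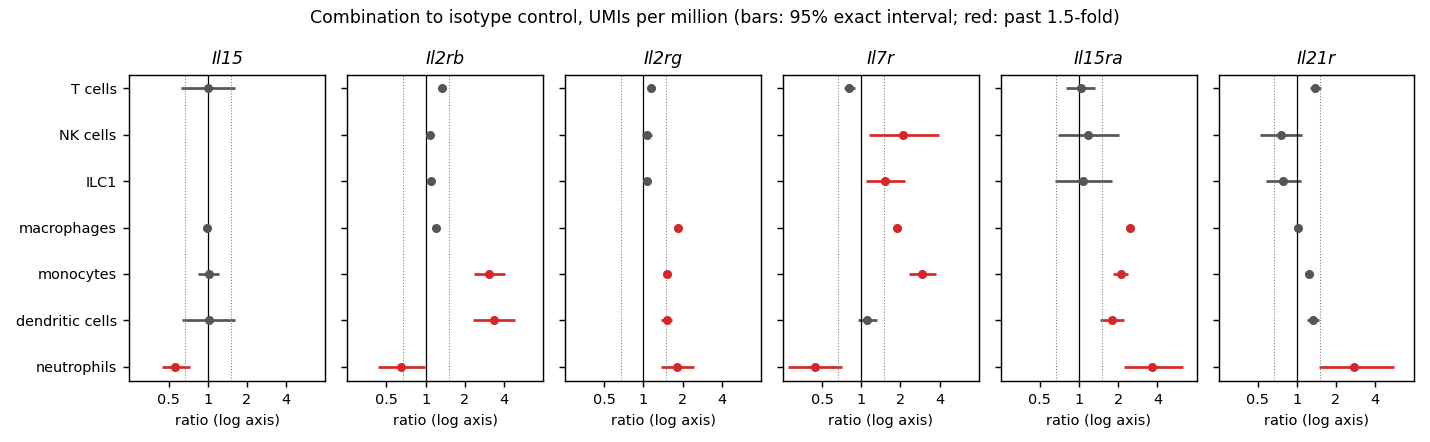
Ratio of combination to isotype control for 6 of the genes (all but Il2) by class on a log axis, with bars for the 95% exact conditional interval, which covers counting error only, dotted lines at 1.5-fold either way and red for ratios past it. Ratios with under 30 UMIs over both libraries are left out, and Il15ra lies at 1.78 to 3.63 in the 4 myeloid classes and at 1.03 in T cells.

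Of the 4 myeloid classes, macrophages were the class in which these values moved least with how cells were grouped. Over 12 other settings the macrophage ratio was 1.80 to 2.33 for Il2rg, 1.89 to 2.41 for Il7r and 2.41 to 3.12 for Il15ra. Within monocytes, a different cluster held most cells in the isotype control (57.3%) and in the combination (64.8%). Their cluster ratios were 1.33 and 1.40 for Il2rg, 2.22 and 2.74 for Il7r and 1.76 and 1.84 for Il15ra. Clustering without integration of the libraries gave 1.03 for Il2rg, 1.34 for Il7r and 1.26 for Il15ra in its monocytes, all under 1.5-fold. Those monocytes were another set of cells, a cluster of 1184 led by Ace and Adgre4, with 155 in the combination. A cluster with Plac8 and Chil3 was named macrophages there. The part of this change of cells in the values was not tested. In dendritic cells Il2rg was 1.40 to 1.95, and Il15 in neutrophils was 0.56 to 0.71.

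Il2ra, the alpha chain of the high-affinity IL-2 receptor and no member of the set, was followed beside it. T cells had 528, 239, 508 and 200 CPM (0.38, 0.35 to 0.41). In Foxp3-positive CD4 T cells it was 1392, 863, 1480 and 182 CPM, from 88, 48, 42 and 9 cells. In CD8 T cells it was 207, 173, 65.5 and 246 CPM, so that the combination was the highest there. Fewer cells of a type and less RNA per cell can both lower a class sum. Foxp3-positive cells were 88 of 415 T cells in the isotype control and 9 of 415 in the combination. The level within these 9 cells was lower as well, where macrophage markers were higher and T cell markers lower, as given above. The part of each in the lower T cell level was not tested.

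Of the 23 other genes of the pathway, listed with earlier results of these data known, 1 of 20 with enough UMIs was higher past 1.5-fold in T cells and 3 lower, against 4.85% and 6.78% of all genes, with a median ratio of 1.06. The share that was higher was thus near that of all genes. The higher one was Il21, the follicular helper cytokine that Il21r binds, at 1.78, 2.51, 8.11 and 15.0 CPM (8.46, 3.398 to 27.2), from 5 UMIs in the isotype control and 51 in the combination. How many T cells held these UMIs is not given here, so that 1 cell may hold much of them, as for Il2. The lower ones were Il2ra, Il4 at 33.0, 23.7, 23.7 and 2.06 CPM, and Il9r (0.66, 0.37 to 1.17). In NK cells and ILC1 none of 17 was higher, against 4.88% of all genes, and 2 were lower, against 7.81%. These were Il13ra1 (0.44, 0.29 to 0.65) and Socs2 (0.65, 0.32 to 1.32).

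In macrophages 3 of 20 pathway genes were higher and 4 lower, against 6.20% and 8.32% of all genes. The higher ones were feedback genes: Socs1, an inhibitor of JAK kinases, had 87.9, 122, 57.6 and 291 CPM (3.31, 3.23 to 3.39), Cish had 15.9, 15.4, 8.44 and 28.0 CPM (1.76, 1.66 to 1.88), and Socs2 a ratio of 1.53 (1.38 to 1.70). Socs1 and Cish were also past 1.5-fold in monocytes, dendritic cells and neutrophils, with ratios of 2.27 to 2.90 for Socs1 and 2.77 to 4.29 for Cish, and in CD8 T cells (1.58 and 1.99). Socs1 is induced by several cytokines outside this family, interferons among them. The lower genes in macrophages were Il2ra (0.37), Il9r (0.45), Tslp (0.39) and the growth regulator Myc (0.67). Il2ra and Il9r were also among the lower genes in T cells, and the part of lymphocyte RNA in these macrophage values was not tested. The kinases Jak1 and Jak3 and the STAT genes were not past the fold in T cells, NK cells with ILC1 or macrophages.

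Genes whose pattern over classes and libraries was most like each member were named by the Pearson correlation of log2(CPM + 1) over 28 sums (7 classes in 4 libraries), among 12701 genes. The points share libraries and cell types, so that these are descriptions. Il2rb went with Ctsw, Nkg7 and Gimap8 (r = 0.99 each), Il2rg with Fkbp8, Cisd3 and Slc50a1 (0.96 each) and Il15 with Rab7, Tiparp and Mcl1 (0.96 to 0.97). Il15ra went with Tapbp (0.90), Jak2 (0.87) and Ifi35 (0.86), Il7r with Trp53i13 (0.89), Mif4gd (0.85) and Bend4 (0.84), and Il21r with Ptprs (0.92), Lpcat1 (0.91) and Cyb5a (0.90). Il2 went with Siah3 (0.99), Trbv12-1 (0.96) and Actg2 (0.95), and the T cell sums behind it hold the single high cells described above.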

How the data were processed

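Viable CD45+ tumor cells were fixed, hybridized with Chromium Flex probes and sequenced, and the authors deposited unnormalized counts (UMIs per gene and cell) for 4 filtered libraries. The submitters' processing notes name Cell Ranger 7.0.0 and mm10, while the matrix headers name version 7.2.0. Kept cells had 500 or more genes detected and no more than 10% of UMIs on mitochondrial genes, and exclude the 5% of each library with the highest Scrublet score, since that caller's own threshold marked only 1 cell in all (scanpy 1.11.5). SCTransform values were integrated over 3000 genes and clustered with 30 principal components at resolution 0.8 (Seurat 5.3.0, R 4.3.3). The 7 genes were not withheld from clustering. Classes were named by marker lists. The limit of a median of 1% macrophage marker UMIs for the mixed class, and setting a dividing T cell subcluster apart, were chosen after the clusters were seen.

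UMIs were summed per class and library and divided by the class total. Levels carry exact Poisson intervals and ratios exact conditional ones, at 95%, for counting error only. No p-value was computed. Shares of cells were computed as the expected share at 2000 UMIs per cell, leaving out shallower cells. A gene was counted as past the fold at 1.5-fold with at least 30 UMIs over both libraries. The genes named are the 7 members, the 3 genes most like each, and those of 23 pathway genes past 1.5-fold in T cells, NK cells and ILC1, or macrophages. Il2ra values by subset and pathway values in other classes were added after they were seen. The members and lists were chosen with earlier results of these data known. Alternatives were other clusterings, filters, scalings and depths, and leaving out cells with RNA of another type. Another 3 were added after seeing the data: keeping the dividing subcluster, leaving out the cell with the most UMIs of a gene, and holding macrophage clusters at fixed shares.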

Additional observations from a re-analysis of the deposited data

How the results depend on the processing

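No paired analysis was possible because each group is 1 library, and leaving out a replicate would leave no sample in its group. Of the 83 values of the 7 ratios of combination to isotype control that were computed under other settings, 57 moved by less than the counting interval, 25 moved further and 1 changed direction. For the other 138 results 1188 of 1425 values moved by less, 228 moved further and 9 changed direction.

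Without the cell with the most Il2 in each library, the Il2 ratio in T cells was 0.36 for the combination and 0.88 for the library titled anti-human CTLA-4, both to isotype control. Clusters without integration gave 1.02 for Il2rb in NK cells and ILC1, 1.03 for Il2rg and 0.70 for Il7r in T cells, 1.85 for Il2 in macrophages, and 0.89 and 0.78 for Il2rb in monocytes and dendritic cells. They also gave 0.90 for Il2rg in neutrophils of the library titled anti-mouse FcgRII. The monocytes of that clustering were a smaller set of cells, as given above. At resolution 0.4 the values were 1.10 for Il2rb in NK cells and ILC1, 1.26 for Il2rg in T cells and 1.01 for Il7r in T cells, and at resolution 1.2 Il2rb in NK cells and ILC1 was 1.10. Keeping the dividing subcluster gave 1.27 for Il2rg and 1.03 for Il7r in T cells. Without cells with RNA of another type the values were 1.03 for Il2rb in NK cells and ILC1, 1.07 for Il2rg and 0.69 for Il7r in T cells, and 0.54 for Il2rb in dendritic cells. With 10% of cells left out as doublets Il2 in macrophages was 1.47 and Il2rb in neutrophils 1.76, and Il7r in neutrophils of the library titled anti-mouse FcgRII was 1.15.

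The mean over cells gave 3.23 for Il2 in T cells, 0.91 for Il15 in macrophages, 1.08 for Il2rb in NK cells and ILC1, 1.03 for Il2rg in T cells and 1.12 for Il21r in T cells. Size factors gave 1.06 for Il15 and 2.66 for Il15ra in macrophages. UMIs per cell, with no scaling, gave 1.25 and 3.12 for these, 1.44 for Il2rb in NK cells and ILC1, and 1.37, 0.98 and 1.68 for Il2rg, Il7r and Il21r in T cells. Apart from the cells left out by construction, the causes of these moves were not tested. Il15ra in macrophages stayed past 1.5-fold in all 12 settings. Depth limits the small classes most: B cells, with 7 in the combination, Foxp3-positive T cells, with 9 in the combination, and neutrophils, with 50 in the library titled anti-mouse FcgRII, carry wide intervals.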

Other observations

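Genes of the family were also counted in classes outside the comparisons above. Mast cells, from 24 to 67 cells per library, had Il15 at 51.6, 71.5, 23.6 and 36.1 CPM in the isotype control, titled anti-human CTLA-4, titled anti-mouse FcgRII and combination libraries, and Il2rg at 323, 429, 465 and 528 CPM. Their Il7r was 68.2, 67.5, 43.3 and 13.9 CPM, the last from 5 UMIs. B cells, only 7 to 19 cells per library, had Il21r at 259, 359, 298 and 110 CPM and Il2rg at 612, 694, 513 and 479 CPM.

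The mixed class, with RNA of both lymphocytes and macrophages, held Il2 at 1.24, 22.5, 0.629 and 3.42 CPM, of which 213 UMIs in the library titled anti-human CTLA-4 and 56 and 24 UMIs in the combination came from the cells with at least 20 Il2 UMIs described above. Its Il15ra was 19.5, 22.0, 14.5 and 39.5 CPM, with a ratio of combination to isotype control of 2.03 (1.85 to 2.22).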
